A study of Mus musculus with 9 samples.

Results

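The genes of DNA replication and mitosis examined here are 44 genes named by their role, 22 of the G1/S transition and S phase and 22 of G2 phase and mitosis. They were listed by gene symbol, with earlier results of these data known. Each was read from the probe set listed to that symbol alone with the highest mean over all arrays. Of the 44 genes, 43 were measured in this way (22 G1/S and 21 G2/M), among 19938 genes in all, and Ccnb1 is not analysed here. The arrays hold RNA of cells from mouse back skin at postnatal day 4. 4 arrays (SKP replicates 3, 4, 5 and 6) hold skin-derived precursor cells (SKPs), which grow out of dissociated skin in culture as spheres and were taken at primary passage. The mouse strain of these colonies is not given in the labels. 5 arrays (sorted replicates 2, 16, 17, 18 and 20) come from Sox2:EGFP mice, whose EGFP transgene reports the transcription factor gene Sox2. The cells were stained with an antibody to CD34 and sorted, without culture, straight into RNAlater as EGFP-positive and CD34-negative. Culture, the sort and possibly the strain differ together between the groups, so their effects cannot be told apart. The arrays are described as independent preparations with no technical replicates; whether they came from separate litters is not given, and the p-values measure the spread between these preparations. Levels are log2 RMA values, and the number of arrays limits the precision.

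A cell commits to division when cyclin D and cyclin E kinases release E2F transcription factors from the retinoblastoma protein. E2F then drives genes for loading the MCM helicase at origins, for the replication fork and for nucleotide supply. A later wave of genes for CDK1, its cyclins, the spindle and the kinetochores follows in G2 and is held off in resting cells by the DREAM complex. In the neonatal hair follicle the papilla, a site of Sox2 expression, divides little, whereas the epithelial matrix around it divides fast.

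The sorted replicates were not alike in these genes. On sorted replicates 16, 17 and 18 nearly all replication and mitosis genes were far below their SKP levels, whereas on sorted replicates 2 and 20 they lay on either side of them or within their range. All 22 G1/S genes lay below all 4 SKP arrays on each of replicates 16, 17 and 18. Of 21 G2/M genes, 21, 19 and 20 did so on these 3 arrays. Over all genes the share below all 4 SKP arrays was 35.5%, 39.2% and 34.3%. On sorted replicate 2, by contrast, 2 G1/S and 12 G2/M genes lay above all 4 SKP arrays, and on sorted replicate 20 it was 11 G1/S and 10 G2/M genes. The same share over all genes was 26.9% on replicate 2 and 28.3% on replicate 20. Below all 4 SKP arrays lay 12 G1/S and 2 G2/M genes on replicate 2 (38.7% of all genes) and 3 of each set on replicate 20 (39.8% of all genes). In all 43 genes every one of sorted replicates 16, 17 and 18 was below both replicates 2 and 20, an order that 22.6% of all genes had. This uneven behaviour also shows in the spread, since the SD over the sorted arrays exceeded that over the SKP arrays in 43 of 43 genes (60.6% of all genes). The median SD was 0.82 over the sorted arrays and 0.17 over the SKP arrays on the log2 scale. In such bulk RNA, fewer dividing cells and less of these RNAs per cell cannot be told apart.

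**Figure D1:**
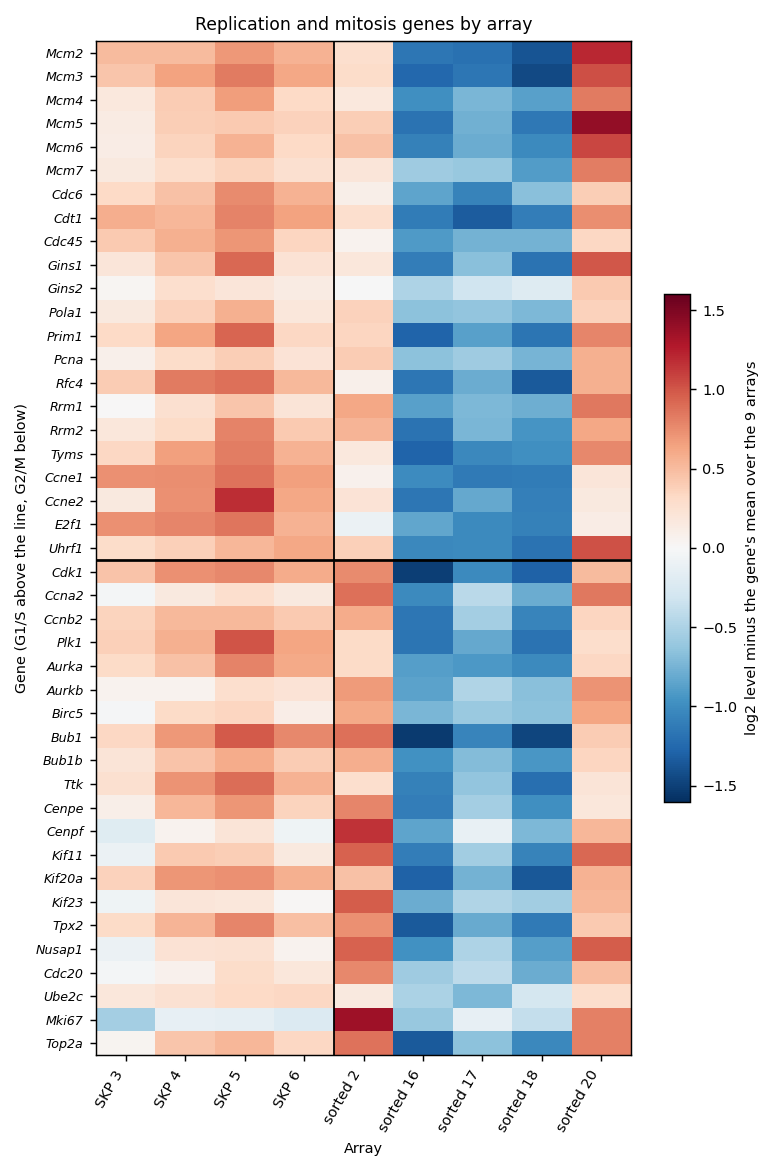
Each row is 1 of 43 genes and each column 1 of 9 arrays; the colour is the log2 level minus that gene's mean over the 9 arrays, with G1/S genes above the horizontal line and G2/M genes below it. In all 43 genes sorted replicates 16, 17 and 18 are lower than sorted replicates 2 and 20; against SKPs, replicate 2 is lower in 12 of 22 G1/S genes and higher in 12 of 21 G2/M genes.

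With all 9 arrays, 6 of 22 G1/S and 3 of 21 G2/M genes were called higher in SKPs (limma, p adjusted by Benjamini-Hochberg across the 19938 genes and under 0.05). Together that was 20.9% of the 43 genes, against 20.2% of all genes, so the share called was that of the background. None was called lower (0, and 0 at an unadjusted p under 0.05), against 16.9% of all genes. The median log2 fold change was 0.87 for G1/S and 0.61 for G2/M genes, against 0.07 over all genes. The groups did not overlap in 3 G1/S genes and 1 G2/M gene, each higher in SKPs, against 18.5% of all genes. The 95% confidence interval reached a 2-fold higher level in SKPs for 37 of the 43 genes and lay within 2-fold in either direction for 5, so most differences not called were not bounded tightly. Without sorted replicates 2 and 20, 22 of 22 G1/S and 20 of 21 G2/M genes were called higher, against 25.4% of all genes. Those arrays are also the ones highest in these genes among the sorted arrays, so that count describes the other arrays and is no independent support. Leaving out sorted replicate 20 alone gave 20 G1/S and 10 G2/M calls (22.9% of all genes), and leaving out sorted replicate 2 alone 9 and 11 (20% of all genes). Each of these fits also drops a sorted array that is high in these genes, so their counts are no independent support. Without SKP replicate 5 there were 2 G1/S calls and 0 G2/M calls with limma (18.6% of all genes), and 3 G2/M genes were higher at an unadjusted p under 0.05. In G2/M genes 1 call was left without SKP replicate 4 (18% of all genes), SKP replicate 6 (17%) or sorted replicate 17 (17.6%). At an adjusted p under 0.01, 2 G1/S and 0 G2/M genes passed in limma (13.9% of all genes), against 10 and 10 at an unadjusted p under 0.05. Median centring gave 8 and 5 calls (26.6%), and weighting the arrays by their fit to the groups gave 22 and 19 (30.8%). That weighting put the lowest weights on sorted replicates 2 and 20 (0.302 and 0.187), so its counts are no independent support either.

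**Figure D2:**
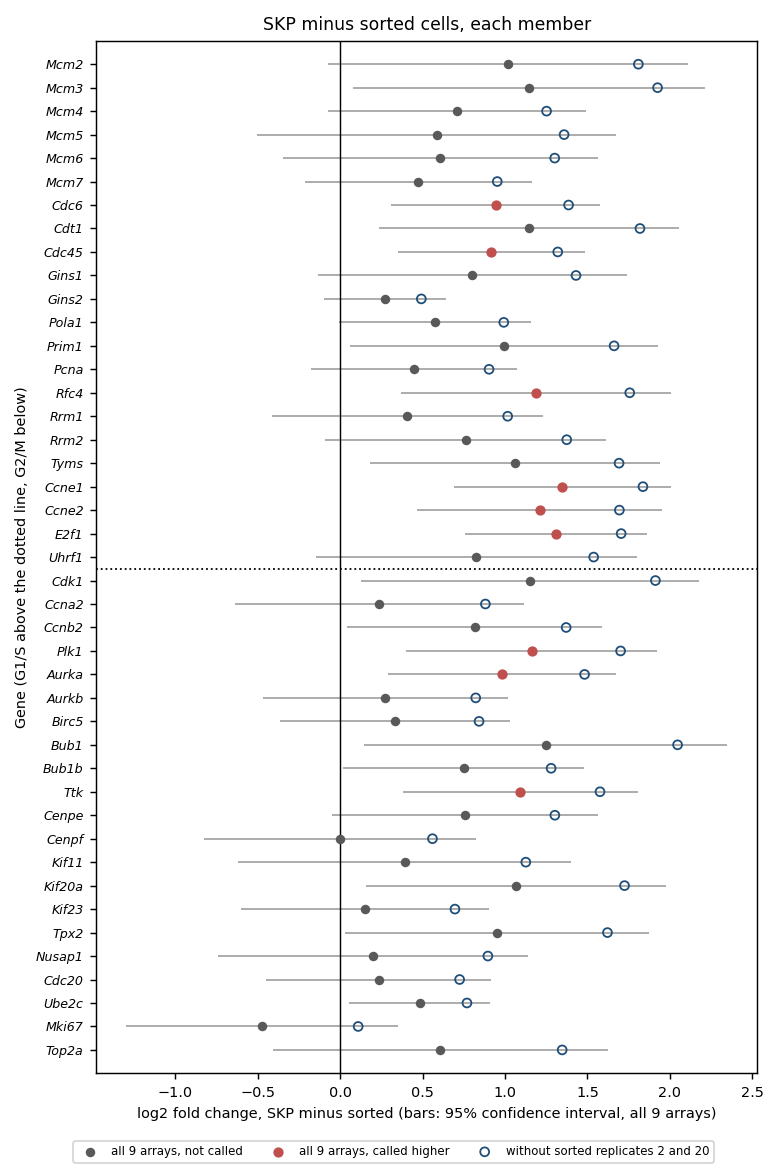
Log2 fold change of SKPs minus sorted cells for each gene with all 9 arrays (filled, red where called, with the 95% confidence interval) and without sorted replicates 2 and 20 (open circles). All 22 G1/S genes lie to the right of 0, and Mki67 and Cenpf are the 2 genes at or left of 0 with all arrays.

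The promoters of the 2 sets carry different textbook motifs, which the choice of genes did not use. Promoter windows from RefSeq (GRCm38.p6), each from 250 bases before to 50 bases after a gene's start, were found for 18 of the 22 G1/S and 17 of the 21 G2/M genes. Each was searched on both strands. An E2F site was taken as TTTCGCGC, TTTGGCGC, TTTCCCGC or TTTGCCGC. It was found in 8 of 18 G1/S genes (44.4%) and 1 of 17 G2/M genes (5.88%), against 2.6% of the 27025 genes with such a window. The cell cycle homology region (CHR), bound by the DREAM complex and by its activating counterparts, was taken as TTTGAA. It was found in 13 of 17 G2/M genes (76.5%) and 2 of 18 G1/S genes (11.1%), against 20.2% of all genes in that table. The CCAAT box, bound by NF-Y, was in 15 G2/M (88.2%) and 12 G1/S genes (66.7%), against 41.1%. A CHR and a CCAAT match in the same window were found in 13 of 17 G2/M genes (76.5%) and 2 of 18 G1/S genes (11.1%). Over all genes in that table the share with both was 7.97%. All 13 G2/M genes with a CHR match thus had a CCAAT match, as had 2155 of the 5466 genes with a CHR match in that table. The same split was seen in further genes that are not members, with E2F matches in 6 of 19 other replication genes (31.6%) and 1 of 25 other mitosis genes (4%), and CHR matches in 4 (21.1%) and 17 (68%). A match is a match of letters and no proof of binding.

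The stretches before the start of Mcm5 and Mcm6, subunits of the replicative helicase, are shown because they are the G1/S genes with more than 1 E2F match before the start. They lie at chr8:75109339-75109508 on the plus strand and chr1:128359706-128359875 on the minus strand, and capitals mark the E2F matches, of which the Mcm5 pair overlaps, as do 2 of the 3 in Mcm6.
Mcm5: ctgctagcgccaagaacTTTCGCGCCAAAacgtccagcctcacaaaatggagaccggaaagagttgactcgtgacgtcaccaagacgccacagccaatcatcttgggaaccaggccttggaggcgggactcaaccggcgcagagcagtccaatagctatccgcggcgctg
Mcm6: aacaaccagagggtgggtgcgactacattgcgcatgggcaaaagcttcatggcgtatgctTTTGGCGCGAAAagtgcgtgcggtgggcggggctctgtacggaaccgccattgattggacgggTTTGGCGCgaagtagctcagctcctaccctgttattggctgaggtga

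The next stretches belong to the G2/M genes with a CHR match within 60 bases before the start. Cdk1 is the mitotic kinase, Kif11 a spindle motor, Cdc20 and Ube2c parts of the anaphase-promoting machinery, and Top2a the topoisomerase that untangles chromosomes. They lie at chr10:69352913-69353012 (minus strand), chr19:37376282-37376381 (plus), chr4:118437344-118437443 (minus), chr2:164769829-164769928 (plus) and chr11:99024190-99024289 (minus). Capitals mark the CHR and CCAAT matches, written TTCAAA and ATTGG where they are on the other strand.
Cdk1: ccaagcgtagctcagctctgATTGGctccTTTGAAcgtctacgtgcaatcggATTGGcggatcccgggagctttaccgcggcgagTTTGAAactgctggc
Kif11: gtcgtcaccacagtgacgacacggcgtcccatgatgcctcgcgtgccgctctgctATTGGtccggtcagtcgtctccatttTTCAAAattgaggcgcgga
Cdc20: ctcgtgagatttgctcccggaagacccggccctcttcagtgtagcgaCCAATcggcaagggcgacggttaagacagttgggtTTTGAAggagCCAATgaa
Ube2c: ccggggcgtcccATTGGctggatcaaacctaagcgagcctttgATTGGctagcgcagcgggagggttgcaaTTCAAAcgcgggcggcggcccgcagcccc
Top2a: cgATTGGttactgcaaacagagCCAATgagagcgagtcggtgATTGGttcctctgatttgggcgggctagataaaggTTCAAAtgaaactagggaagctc

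All 3 genes of the entry to S phase were called higher in SKPs, and E2f1 and Ccne1 had the smallest adjusted p of the 43 genes. E2f1, the E2F family member that switches on replication genes, was at 8.58, 8.62, 8.70 and 8.40 on SKP replicates 3, 4, 5 and 6. On sorted replicates 2, 16, 17, 18 and 20 it was at 7.75, 7.01, 6.83, 6.77 and 7.96. Every sorted array was below every SKP array, with replicates 2 and 20 nearest to them. E2f1 was 2.48-fold higher in SKPs (log2 fold change 1.31, SE 0.25, adjusted p = 0.00207, limma), at 8.57 ± 0.13 (SD, n = 4) against 7.26 ± 0.55 (n = 5). Ccne1, which encodes cyclin E1, was at 8.87, 8.88, 9.01 and 8.79 in SKPs and at 8.21, 7.13, 7.01, 7.01 and 8.33 on the sorted arrays in the same order. It did not overlap either and was 2.55-fold higher (log2 fold change 1.35, SE 0.29, adjusted p = 0.00482). Both calls held in 9 of 9 fits that left out 1 array. Ccne2, for cyclin E2, was 2.31-fold higher (adjusted p = 0.0161), although SKP replicate 3 (7.19) lay below sorted replicate 2 (7.25), and its call was lost without SKP replicate 5 (adjusted p = 0.0531). On sorted replicates 16, 17 and 18 it was at 5.88, 6.21 and 5.94, not told from background, so the size of its fold change is uncertain.

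The 6 MCM helicase genes were split by sorted replicate 20, which lay above all SKP arrays in each of them. In Cdc6 and Cdt1 it lay within the SKP range, and in Cdc45 below it. Mcm2, 1 of the 6 subunits of the MCM helicase that is loaded at origins, was at 9.55, 9.55, 9.74 and 9.61 in SKPs. On sorted replicates 2, 16, 17, 18 and 20 it was at 9.31, 7.89, 7.86, 7.66 and 10.25. Replicate 20 thus lay above all SKP arrays and the other 4 sorted arrays below them. The difference of 1.02 on the log2 scale (SE 0.49) was not called (adjusted p = 0.134, limma). Without replicates 2 and 20, the sorted arrays highest in this gene, it was 1.81, which is no independent support. Mcm5, shown above with an overlapping pair of E2F matches, was at 8.84, 9.10, 9.13 and 9.08 in SKPs and at 9.11, 7.53, 7.94, 7.56 and 10.11 in the sorted cells. On sorted replicate 20 it was higher than on any SKP array, and on replicate 2 it lay within their range. Mcm6 had the same order, at 9.94 to 10.37 in SKPs and 10.29, 8.73, 9.03, 8.81 and 10.89 in the sorted cells. The 6 MCM genes had log2 fold changes of 0.47 (Mcm7) to 1.15 (Mcm3), with adjusted p of 0.0887 to 0.388, and Mcm4 was at 0.71. Without replicates 2 and 20, the sorted arrays highest in these genes, each of the 6 was called higher, which is no independent support.

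Cdc6, which helps to load the MCM ring, was called higher (0.94 on the log2 scale, adjusted p = 0.0245), a call that held in 4 of 9 fits with 1 array left out. It was lost without SKP replicate 4, 5 or 6 or sorted replicate 16 or 18 (adjusted p up to 0.0695). Cdt1, the other loading factor, differed by 1.14 and missed the threshold (adjusted p = 0.0508). Cdc45, which turns the loaded ring into an active helicase, was at 8.43, 8.58, 8.71 and 8.36 in SKPs and at 8.07, 7.10, 7.25, 7.25 and 8.35 in the sorted cells. The groups were apart by a narrow margin between SKP replicate 6 and sorted replicate 20. Cdc45 was called higher (0.92, adjusted p = 0.0169, and 0.0513 without SKP replicate 5). Its partners in the GINS complex, Gins1 (0.80, adjusted p = 0.167) and Gins2 (0.27, adjusted p = 0.230), were not called.

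Fork and nucleotide genes showed the same order of arrays with fewer calls. Rfc4, a subunit of the loader of the sliding clamp, was 2.27-fold higher (adjusted p = 0.0281), and its call held in 3 of 9 fits with 1 array left out. It was lost without SKP replicate 4, 5 or 6 or sorted replicate 16, 17 or 18 (adjusted p up to 0.0740). Pcna, the clamp itself, was at 11.13 to 11.44 in SKPs, at 10.30 to 10.48 on sorted replicates 16, 17 and 18, and at 11.45 and 11.60 on replicates 2 and 20. Its difference of 0.45 was not called (adjusted p = 0.245), and its other probe set gave 0.46. Pola1 and Prim1, subunits of the polymerase and primase that start new strands, differed by 0.58 (adjusted p = 0.113) and 1.00 (adjusted p = 0.0910). Rrm1 and Rrm2, the ribonucleotide reductase subunits that make deoxynucleotides, differed by 0.41 and 0.76, and Tyms, which makes thymidylate, by 1.06 (adjusted p = 0.0586). Uhrf1, which keeps DNA methylation through replication, differed by 0.83 (adjusted p = 0.171). It was at 9.30 on sorted replicate 20 against 8.58 to 8.90 in SKPs.

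**Figure D3:**
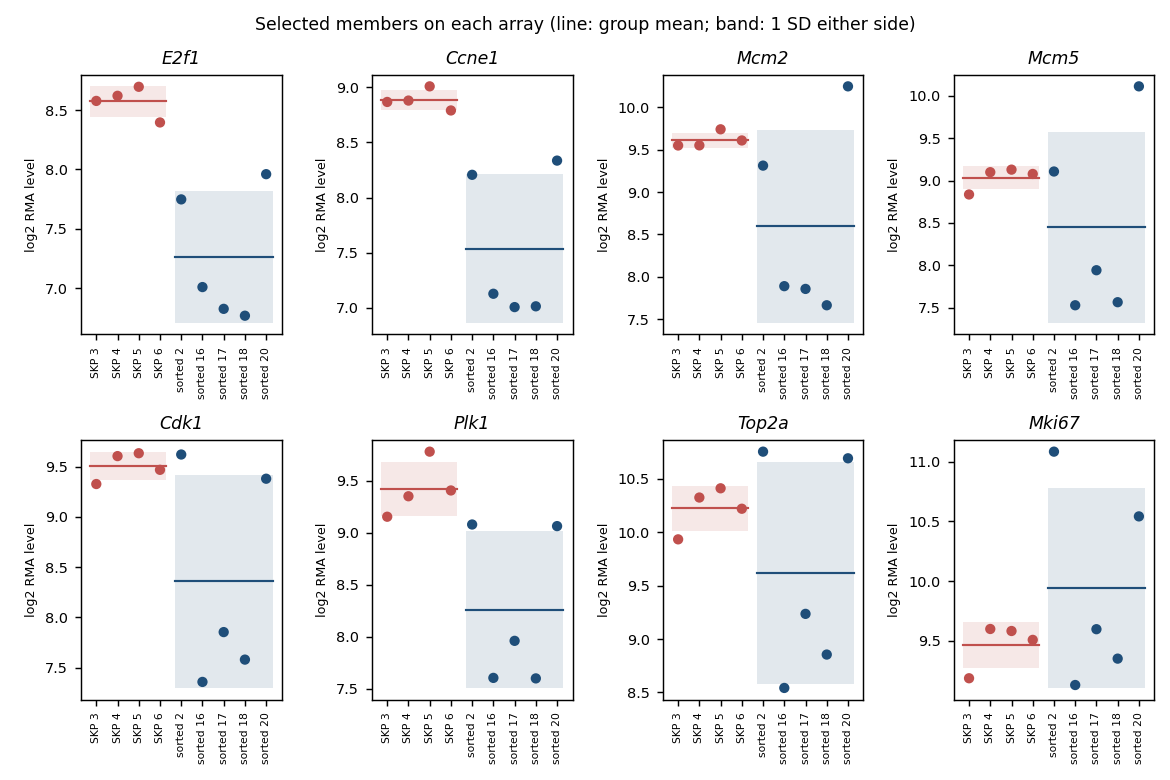
Log2 level of 8 genes on each array (red SKP, blue sorted; line, group mean; band, 1 SD either side). E2f1, Ccne1 and Plk1 do not overlap between the groups, whereas Mcm2 and Mcm5 are highest on sorted replicate 20 and Mki67 on sorted replicate 2.

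Of Plk1, the Aurora kinases and survivin, Plk1 and Aurka were called higher and Aurkb and Birc5 were not called. Plk1, a kinase of mitotic entry and spindle assembly, was at 9.16, 9.35, 9.78 and 9.41 in SKPs and at 9.08, 7.61, 7.96, 7.60 and 9.07 in the sorted cells. It was the 1 G2/M gene in which the groups did not overlap, 2.24-fold higher in SKPs (adjusted p = 0.0222). That call was lost without SKP replicate 5 or 6 or sorted replicate 17 (adjusted p up to 0.0666). Aurka, the centrosomal Aurora kinase, was 1.97-fold higher (adjusted p = 0.0307). Its call held in 3 of 9 fits with 1 array left out and was lost without SKP replicate 4, 5 or 6 or sorted replicate 16, 17 or 18 (adjusted p up to 0.0825). Aurkb and Birc5, the kinase and the survivin subunit of the chromosomal passenger complex, differed by 0.28 (adjusted p = 0.558) and 0.33 (adjusted p = 0.447). Aurkb was at 9.02 and 9.06 on sorted replicates 2 and 20, above the 8.40 to 8.61 of SKPs, and at 7.49 to 7.86 on the other sorted arrays.

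Cdk1 was at 9.33, 9.61, 9.63 and 9.47 in SKPs and at 9.62, 7.36, 7.85, 7.58 and 9.38 in the sorted cells. Sorted replicates 2 and 20 lay within the SKP range and the other 3 more than 1 log2 unit below it. The difference of 1.15 (SE 0.46) was not called (adjusted p = 0.0766). Ccna2 and Ccnb2, for cyclins A2 and B2, differed by 0.24 (adjusted p = 0.674) and 0.82 (adjusted p = 0.0952). Ccna2 was above all SKP arrays on sorted replicates 2 (10.26) and 20 (10.22).

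Of the spindle checkpoint genes, Ttk, the kinase that starts the checkpoint, was called higher (1.09, adjusted p = 0.0214). The call was lost without SKP replicate 4 or 5 (adjusted p up to 0.0636). On sorted replicates 16 and 18 Ttk was at 6.15 and 6.03, not told from background. Bub1 was at 8.62, 8.98, 9.27 and 9.07 in SKPs and at 9.18, 6.76, 7.23, 6.82 and 8.70 in the sorted cells, so it was lowest on the same 3 arrays. Its difference of 1.25 was the largest among G2/M genes and was not called (adjusted p = 0.0742). Without replicates 2 and 20, the sorted arrays highest in Bub1, the difference was 2.05, the largest of the 43 genes in that fit. Bub1b differed by 0.75 (adjusted p = 0.102).

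The kinetochore and spindle genes had no call. Cenpe, a kinetochore motor, differed by 0.76 (adjusted p = 0.132). Cenpf, a protein of the outer kinetochore, was between 7.76 and 8.15 in SKPs and at 9.10, 7.10, 7.83, 7.24 and 8.48 in the sorted cells. Its group means were both 7.95, with a 95% confidence interval of the difference from -0.83 to 0.83, and the sign of the difference turned between normalizations. The motors Kif11 (0.39), Kif20a (1.07, adjusted p = 0.0653) and Kif23 (0.15) and the spindle factors Tpx2 (0.95, adjusted p = 0.0998) and Nusap1 (0.20) were not called. Kif11 was at 9.81 and 9.78 on sorted replicates 2 and 20, above the 8.77 to 9.29 of SKPs, and at 7.77 to 8.31 on the other 3. Cdc20 and Ube2c, which promote the exit from mitosis, differed by 0.23 (adjusted p = 0.590) and 0.48 (adjusted p = 0.0746).

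Mki67, the gene of the Ki67 antigen used to mark dividing cells, had the lowest log2 fold change of the members. It was at 9.19, 9.60, 9.58 and 9.51 in SKPs and at 11.09, 9.13, 9.60, 9.35 and 10.54 in the sorted cells. Sorted replicates 2 and 20 were more than 0.9 above every SKP array, replicates 17 and 18 within the SKP range, and replicate 16 just below it. The difference of -0.47 (SE 0.37, 95% confidence interval -1.30 to 0.35) was not called (adjusted p = 0.355). Without replicates 2 and 20 it was 0.11, the 1 member not called in that fit (adjusted p = 0.569). Cenpf, described above, likewise lay above all SKP arrays on sorted replicates 2 and 20 and within their range on replicate 17. Top2a was at 9.93, 10.33, 10.41 and 10.22 in SKPs and at 10.76, 8.54, 9.24, 8.85 and 10.69 in the sorted cells. Sorted replicates 2 and 20 were above all SKP arrays and the other 3 below them, and its difference of 0.61 was not called (adjusted p = 0.335). Its other probe set was at 3.62 to 4.72 on all arrays, where levels are not told from background.

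The phases were set against each other array by array, as the mean over each set after each gene's own mean over the 9 arrays was taken off. No test was made of these means. The G1/S mean was 0.29, 0.49, 0.69 and 0.42 on SKP replicates 3, 4, 5 and 6, and the G2/M mean was 0.11, 0.38, 0.51 and 0.32. On sorted replicates 2, 16, 17, 18 and 20 the G1/S mean was 0.25, -0.99, -0.85, -0.99 and 0.69, and the G2/M mean 0.71, -1.02, -0.61, -0.93 and 0.53. The gap between them, G1/S minus G2/M, was 0.10 to 0.19 in SKPs. It was -0.46 on sorted replicate 2, 0.16 on replicate 20, and 0.03, -0.24 and -0.07 on replicates 16, 17 and 18. The pair of sorted arrays with high levels therefore differed in balance, with replicate 2 tilted to mitosis genes and replicate 20 at the SKP balance.

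Gene by gene, 20 of 22 G1/S genes were higher on sorted replicate 20 than on replicate 2, by a median of 0.45, against 47.6% of all genes. Of 21 G2/M genes 6 were higher on replicate 20, with a median difference of -0.06 for replicate 20 minus replicate 2. Mcm5 was 1.01 and Mcm2 0.94 higher on replicate 20, whereas Cenpf was 0.62, Cenpe 0.61 and Mki67 0.54 lower there. Other genes of replication and mitosis showed the low gap of replicate 2 as well, at -0.36 against 0.02 to 0.23 on the other sorted arrays. In those lists, however, the gap in SKPs was -0.09 to 0.02, so the higher gap of SKPs over the sorted arrays as a group was not seen there. The difference of the median log2 fold changes, 0.26 for the members, was -0.03 for these other lists. Sorted replicate 17 was the highest of replicates 16, 17 and 18 in 19 of 21 G2/M and 14 of 22 G1/S genes, an order that 26.5% of all genes had.

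**Figure D4:**
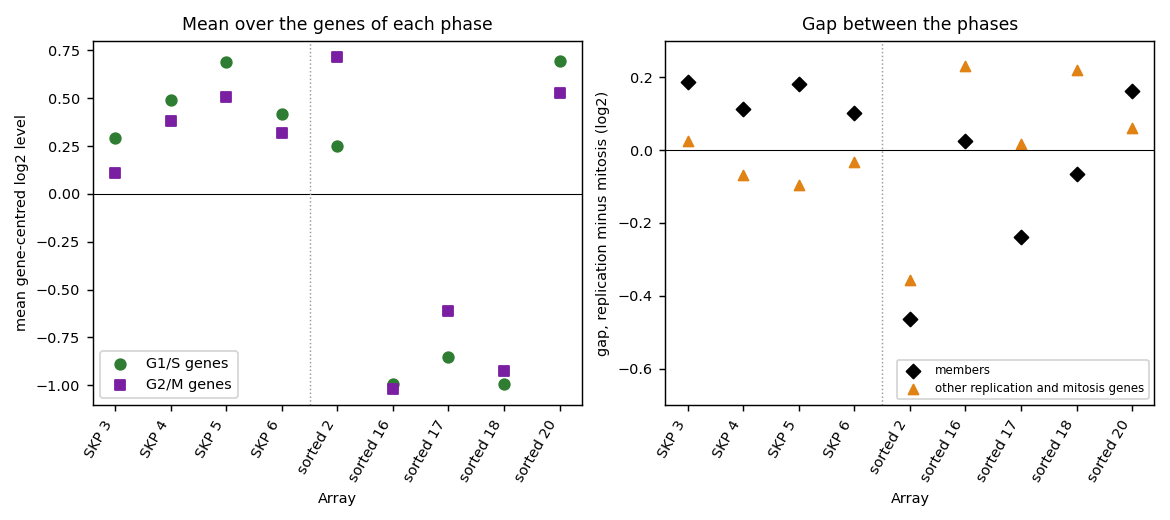
Left, mean gene-centred log2 level of the 22 G1/S and 21 G2/M genes on each array; right, the gap between replication and mitosis genes for the members and for other genes of the same functions. Sorted replicate 2 has the lowest gap in both lists (-0.46 and -0.36).

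The SKP arrays were close to each other, with SDs of at most 0.42 on the log2 scale. They still kept an order in these genes: SKP replicate 5 was the highest of the 4 in 20 of 22 G1/S and 16 of 21 G2/M genes (27.6% of all genes). SKP replicate 3 was the lowest in 18 and 20 of them (22.3% of all genes). The mean of 13 measured myeloid markers was 7.43, 6.87, 8.41 and 7.77 on SKP replicates 3, 4, 5 and 6, highest on replicate 5 as well but lowest on replicate 4. It was 5.87 to 6.20 on the sorted arrays. The part of myeloid cells in the levels of the division genes was not tested.

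Markers of other cells moved with the split of the sorted arrays. The mean of 17 measured hair matrix and shaft genes was 9.63 to 9.91 on sorted replicates 16, 17 and 18, which were low in division genes. It was 7.26 and 7.08 on replicates 2 and 20. In SKPs it was 5.97 to 6.35, with 9 of the 17 under 6.31 on all SKP arrays. Most genes of this list are keratins of maturing hair cells, so its mean does not set the dividing matrix apart from them. The list's transcription factor genes Msx2, Hoxc13 and Dlx3 went the same way as its keratins. The mean of the 18 epidermal keratinocyte genes was 9.77 on replicate 2, 11.05 on replicate 20, 8.99 to 9.18 on the remaining sorted arrays and 6.40 to 6.70 for SKPs. On replicates 2 and 20, 10 of 18 were higher than on the remaining sorted arrays, an order that 22.6% of all genes had. The mean of the 14 dermal fibroblast genes was 11.13 and 11.19 on the same pair, 10.11 to 10.19 on the remaining sorted arrays and 11.32 to 11.41 for SKPs. On the pair 11 of 14 were higher than on the remaining sorted arrays (22.6% of all genes). Of these 14 genes 8 were called higher in SKPs (57.1%, against 20.2% of all genes). Dpp4 was called lower, by 3.00 on the log2 scale. The mean of the 19 measured dermal papilla genes was 10.57 and 10.01 on replicates 2 and 20, 11.59 to 11.77 on the remaining sorted arrays and 6.79 to 7.02 for SKPs. Cd34, the surface marker selected against, had 10.19 and 10.27 on this pair, 7.31 to 7.82 on the remaining sorted arrays and, for SKPs, 11.14 to 11.62. Sox2, the gene selected for, was at 8.24 to 9.25 on the sorted arrays and 5.78 to 6.41 in SKPs. The means of 9 melanocyte and 7 measured Schwann cell genes were 8.70 to 9.18 and 8.43 to 9.24 on the sorted arrays, against 7.03 to 7.34 and 6.22 to 6.55 in SKPs. The melanocyte genes did not all go this way. Of them 7 were called lower in SKPs (77.8%, against 16.9% of all genes) and Kit was not called. Mitf was called higher, at a mean of 9.70 in SKPs and 8.09 in the sorted cells. The mean of 9 endothelial genes was 7.06 and 7.54 on replicates 2 and 20, with 8 of 9 higher there (22.6% of all genes), compared with 6.29 to 6.39 and, for SKPs, 6.28 to 6.61. The part of these cell types in the division genes was not tested.

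Other genes of the same machinery were called at shares near those of all genes (20.2% higher, 16.9% lower), except that none was lower. Of 24 measured further replication genes 6 were called higher (25%) and 0 lower (8 and 0 at an unadjusted p under 0.05, limma), with a median of 0.42. Rfc2, another clamp loader subunit, was 2.02-fold (adjusted p = 0.00478) and Cdc7, the kinase that fires origins, 1.87-fold higher (adjusted p = 0.00922). Of 30 further mitosis genes 5 were called higher (16.7%) and 0 lower (6 and 0 at an unadjusted p under 0.05), with a median of 0.45. Nuf2, a subunit of the kinetochore's microtubule anchor, was 3.12-fold higher (adjusted p = 0.0107). It was 4.96-fold higher without sorted replicates 2 and 20, the sorted arrays highest in it. Hmmr, a spindle protein, was 2.60-fold higher (adjusted p = 0.0411), a call that held in 2 of 9 fits with 1 array left out, those without sorted replicate 2 or 20. On sorted replicates 16 and 18 Hmmr was at 5.86 and 5.68, not told from background. Without replicates 2 and 20, 24 of 24 and 28 of 30 of these genes were called higher, against 25.4% of all genes. That count too is no independent support, since those arrays are the highest sorted ones in nearly all of these genes. Without sorted replicate 20 alone it was 12 and 9 (22.9% of all genes), and without sorted replicate 2 alone 10 further mitosis genes (20% of all genes). For the same reason these counts are no independent support. Leaving out any 1 of the other 7 arrays left 2 or 3 of the mitosis calls (17% to 18.6% of all genes).

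Among the genes that restrain or license entry into division, some differed on every sorted array, replicates 2 and 20 included. Of 9 measured CDK inhibitors and pocket proteins 2 were called higher (22.2%, against 20.2% of all genes) and 3 lower (33.3%, against 16.9%), with a median of 0.08; Cdkn1a is not analysed here. Cdkn2b, an inhibitor of the cyclin D kinases, was at 10.52, 10.35, 10.44 and 10.44 in SKPs and at 7.21, 7.21, 7.37, 7.24 and 7.17 in the sorted cells. The sorted arrays all lay between 7.17 and 7.37, and it was 9.19-fold higher in SKPs (adjusted p = 5.36e-09). Cdkn2a, the neighbouring inhibitor gene that also encodes the p53 activator ARF, was at 8.68 to 8.96 in SKPs and 6.27 to 6.49 in the sorted cells, a 5.52-fold difference (adjusted p = 4.01e-08). Its sorted levels lie at or near the 6.31 under which values are not told from background.

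The restraining genes Rb1 and Cdkn1b went the other way. Rb1, which encodes the retinoblastoma protein, was at 7.71, 7.87, 7.94 and 7.64 in SKPs and at 9.40, 10.14, 10.01, 10.08 and 9.12 in the sorted cells. It was 3.90-fold lower in SKPs (adjusted p = 5.61e-05). Cdkn1b, an inhibitor of cyclin E kinases, was 2.28-fold lower (adjusted p = 3.79e-04), at 9.03 ± 0.16 (SD, n = 4) against 10.22 ± 0.35 (n = 5). Rbl2, a pocket protein of the DREAM complex chosen after its values were seen, was 1.97-fold lower (adjusted p = 1.55e-04). In these 3 genes sorted replicates 2 and 20 were the sorted arrays nearest to SKPs.

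Of 9 G1 cyclin, kinase and Myc genes 4 were called higher (44.4%, against 20.2% of all genes) and 1 lower (11.1%, against 16.9%), with a median of 0.58. Ccnd1, for cyclin D1, was at 11.62, 11.19, 12.08 and 11.85 in SKPs and at 10.45, 9.89, 10.02, 9.84 and 10.74 in the sorted cells, without overlap. It was 2.82-fold higher (adjusted p = 5.09e-04), and its kinase partner Cdk4 was 2.18-fold higher (adjusted p = 0.00209). Mycn, a Myc family factor, was 2.90-fold lower (adjusted p = 3.49e-04). Of 13 further E2F and DREAM genes 4 were called higher (30.8%, against 20.2% of all genes) and 2 lower (15.4%, against 16.9%), with a median of 0.14. E2f3 was 2.29-fold (adjusted p = 3.60e-06) and E2f4 1.56-fold higher (adjusted p = 7.88e-04). Tfdp2, an E2F partner, was 2.17-fold lower (adjusted p = 2.46e-05) and the DREAM subunit Lin54 1.66-fold lower (adjusted p = 0.00712).

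All 10 genes of the list of p53 targets and growth arrest genes were called, 4 higher (40%, against 20.2% of all genes) and 6 lower (60%, against 16.9%), with a median of -0.79. Ccng1, a p53 target that encodes cyclin G1, was 6.30-fold higher (adjusted p = 1.03e-07) and the stress gene Gadd45a 5.26-fold higher (adjusted p = 2.75e-06). Its relatives Gadd45b and Gadd45g were 5.95-fold (adjusted p = 7.38e-08) and 5.76-fold lower (adjusted p = 3.36e-06). The list thus did not move one way, and members of the Gadd45 family lay on both sides.

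**Figure D5:**
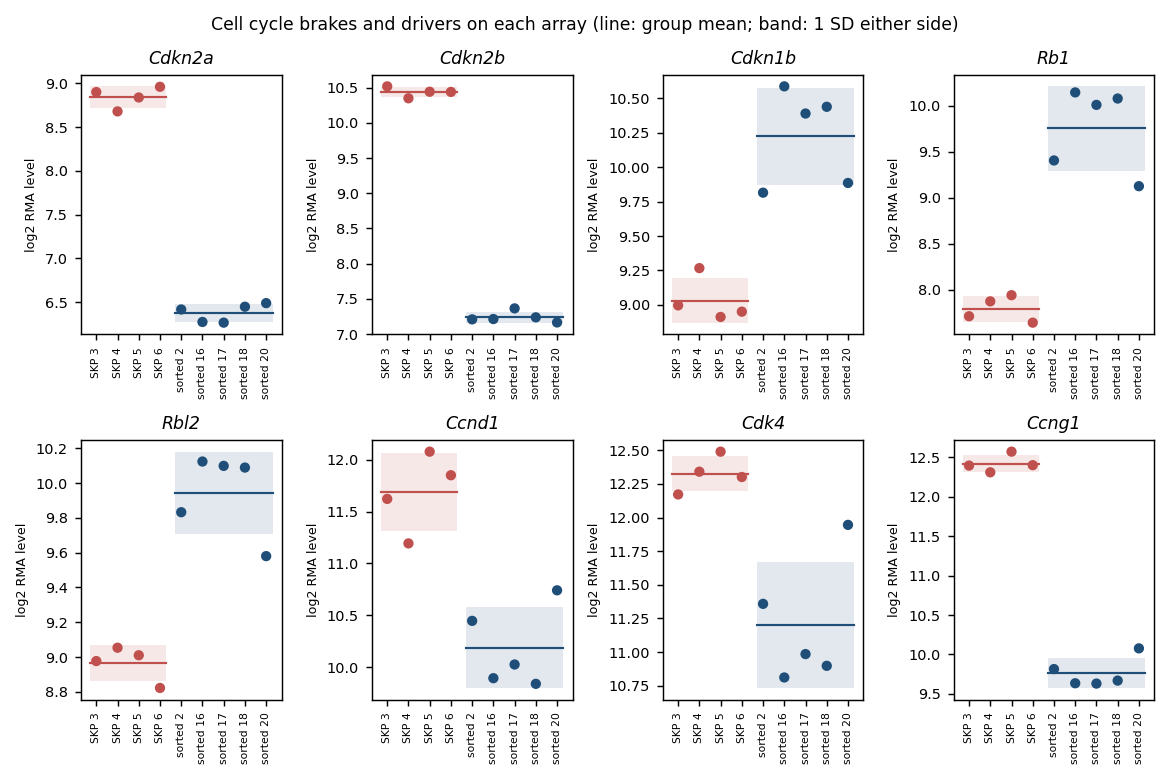
Log2 level on each array (red SKP, blue sorted; line, group mean; band, 1 SD either side) of genes that restrain or drive entry into division. The 8 genes were drawn from those called, so that the groups do not overlap in any of them is no support. Of all 19938 genes, 3689 were higher and 3088 lower in SKPs without overlap. Cdkn2b lies between 7.17 and 7.37 on all sorted arrays, and Rb1 is nearest to SKPs on sorted replicates 2 and 20.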

How the data were processed

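RNA of 4 SKP and 5 sorted preparations was hybridised to 1 Affymetrix Mouse Gene 1.0 ST array each. The deposited values are log2 RMA levels per probe set; per the submitters' processing notes the authors used RMA, Affymetrix Expression Console and limma, with versions and settings not given in the sources used here. RMA summaries are normalized between arrays, so they show relative and not absolute RNA amounts. The table holds 35556 probe sets, of which 21789 are listed to 1 gene symbol and 1621 to several. Where several of these shared a symbol, the one highest on average across the 9 arrays was kept (19938 genes). In 3 of the 43 members pairs of arrays hold an identical value. Array medians over genes lay between 7.15 and 7.30. No detection p-values were used. Values under 6.31, a bound set from the ranked gene means and below which the dimmest genes lie, are not told from background. This touches 8 of the members' array values, all on sorted arrays and in Gins1, Ccne2 and Ttk.

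SKP minus sorted was fitted with limma 3.58.1 (lmFit, eBayes) in R 4.3.3, two-sided, with Benjamini-Hochberg adjustment over all genes and calls at an adjusted p under 0.05. Fold changes are differences of mean log2 levels. Set means and medians are descriptions. On simulated data of the same sizes (19938 genes), 36%, 84%, 98% and 100% of genes changed by log2 0.5, 1, 2 and 4 were recovered, with 5 false among 164 calls; the simulated spread did not differ between groups, unlike that of the members. The members and lists were chosen with earlier results of these data known. All members are named; of each other list the 2 highest and 2 lowest called genes are. Alternatives were quantile normalization, median centring, removal of genes with a mean under 6.31, a mean over probe sets, trend and robust eBayes, array weights, an adjusted p under 0.01, each array left out, and sorted replicates 2 and 20 left out together. Promoter sequences and starts are from RefSeq, GRCm38.p6; the files name no build. Python 3.11.15 and matplotlib 3.10.9 made the figures.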

Additional observations from a re-analysis of the deposited data

Results flagged for a closer look

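The highest or lowest array of each group was compared with the others of its group in 130 groups of values. Chance alone marks about 1 in 20 such groups, and 1 was marked here. Tfdp2 was at 9.65 on sorted replicate 20, against 9.13 to 9.27 on the other sorted arrays.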

How the results depend on the processing

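No paired analysis was possible because the SKP and sorted groups share no replicate number. Array weights were 0.302 and 0.187 for sorted replicates 2 and 20, against 0.517 to 2.65 for the other arrays. With them the calls higher in SKPs numbered 6145 over all genes, 22 in G1/S and 19 in G2/M genes, 24 in other replication genes, 25 in other mitosis genes, 4 in CDK inhibitors and 7 in E2F and DREAM genes. Without sorted replicates 2 and 20 together they were 22, 20, 24, 28, 4 and 8 in the same 6 lists, against 25.4% of all genes, and the G2/M median was 1.28. Neither set of counts is independent support, since replicates 2 and 20 were the sorted arrays highest in all 43 members. At an adjusted p under 0.01 there were 2 calls in G1/S and 0 in G2/M genes (limma, 10 at an unadjusted p under 0.05), 1 in other mitosis and 2 in G1 cyclin and kinase genes, against 13.9% of all genes. Median centring gave 5 in G2/M genes, against 26.6% of all genes. Leaving out 1 array gave 2 to 20 calls in G1/S, 0 to 11 in G2/M, 5 to 12 in other replication and 2 to 10 in other mitosis genes. Over all 19938 genes it gave 3396 to 4568 calls higher in SKPs. Cenpf turned sign on quantile normalization (0.038), median centring (0.069), array weights (0.41) and without replicates 2 and 20 (0.56), and ranged from -0.21 to 0.29 with 1 array left out. Mki67 turned to 0.11 without both replicates; Kif23 and Nusap1 fell to -0.031 and -0.021 at the lowest and reached 0.41 and 0.46 with 1 array left out. A mean over probe sets and trend with robust eBayes changed no call of the genes named. The cause of these changes was not tested.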
